A study of Mus musculus with 54 samples.

Results

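The collagen genes described here are the 44 genes, of 54232 features in the count files, whose symbol is Col followed by a chain type and an alpha number. They comprised 11 fibrillar genes, 9 fibril-associated genes, 6 genes of the basement membrane network (Col4a1 to Col4a6), 6 beaded filament genes (Col6a1 to Col6a6), 4 transmembrane collagens, 3 hexagonal network genes, 2 multiplexins, the anchoring fibril gene Col7a1, and Col26a1 and Col28a1, which were put in no class. RNA was sequenced from kidney, heart and brain of male BL6 mice aged about 20 months, injected daily for 14 days with Cmpd60 at 22.5 mg/kg or with its vehicle of DMSO, PEG400 and saline. Cmpd60 is a benzamide that inhibits the histone deacetylases HDAC1 and HDAC2. The groups held 6 Cmpd60 and 5 vehicle libraries of kidney, 5 and 6 of heart, and 6 and 6 of brain. Brains of APPSWE-1349 mice, which carry a transgene for human amyloid precursor protein with the Swedish mutation, and of AD-control mice, all male, on a BL6 background and aged 6 to 7 months, received the same agents. The study examined fibrosis by staining collagen in aged kidney sections with picrosirius red, whereas the libraries measured collagen mRNA and no protein. In the kidney labels, the treatment field gave the opposite of the title and source name, and titles were followed, so each kidney direction rests on them.

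Collagens are triple helices of 3 alpha chains, each encoded by its own gene. Fibrillar collagens such as type I (Col1a1 and Col1a2) and type III (Col3a1) form the banded fibers of the interstitium and of scars, and fibroblasts and related cells make most of them. Type IV collagen forms the sheet of basement membranes: the chains of Col4a1 and Col4a2 assemble with each other in nearly all tissues, and the chains of Col4a3, Col4a4 and Col4a5 form the network of the mature glomerular basement membrane. Type VI collagen forms beaded filaments between basement membrane and interstitium, and collagens XV and XVIII are basement membrane collagens that carry sugar chains.

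Promoter sequences of 2 pairs of genes are shown, from RefSeq on GRCm38.p6, where the table held 38 windows for 35 of the 44 genes, each from 250 bases before to 50 bases after a start. Col4a1 and Col4a2 are shown because they lie head to head and their levels moved together, and Col6a6 and Col6a1 because they belong to 1 filament class and differed in direction with Cmpd60 in the heart. Capitals mark the GC box (GGGCGG or CCGCCC) and the CCAAT box (CCAAT or ATTGG), searched on both strands together with the TATA box (TATAAA or TTTATA). Col4a1 is at chr8:11312777-11313076 on the minus strand, Col4a2 at chr8:11312555-11312854 on the plus strand, Col6a6 at chr9:105828036-105828335 on the minus strand and Col6a1 at chr10:76725995-76726294 on the minus strand.
Col4a1: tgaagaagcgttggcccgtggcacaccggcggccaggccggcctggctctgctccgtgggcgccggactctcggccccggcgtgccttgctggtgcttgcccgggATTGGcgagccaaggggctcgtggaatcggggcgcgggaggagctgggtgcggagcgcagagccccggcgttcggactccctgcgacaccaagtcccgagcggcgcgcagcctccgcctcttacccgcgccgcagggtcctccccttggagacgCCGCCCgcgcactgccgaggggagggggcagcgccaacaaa
Col4a2: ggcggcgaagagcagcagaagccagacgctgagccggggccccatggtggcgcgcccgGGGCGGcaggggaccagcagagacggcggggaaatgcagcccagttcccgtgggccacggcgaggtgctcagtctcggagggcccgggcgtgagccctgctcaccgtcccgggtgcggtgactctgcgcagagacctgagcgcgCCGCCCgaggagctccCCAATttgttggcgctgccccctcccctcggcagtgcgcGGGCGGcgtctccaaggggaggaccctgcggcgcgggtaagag
Col6a6: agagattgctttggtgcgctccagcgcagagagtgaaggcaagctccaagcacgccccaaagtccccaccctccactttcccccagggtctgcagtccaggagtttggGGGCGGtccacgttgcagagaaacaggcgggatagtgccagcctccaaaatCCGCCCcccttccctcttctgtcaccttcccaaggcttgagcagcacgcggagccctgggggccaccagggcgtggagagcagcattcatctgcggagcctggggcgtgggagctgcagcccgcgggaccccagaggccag
Col6a1: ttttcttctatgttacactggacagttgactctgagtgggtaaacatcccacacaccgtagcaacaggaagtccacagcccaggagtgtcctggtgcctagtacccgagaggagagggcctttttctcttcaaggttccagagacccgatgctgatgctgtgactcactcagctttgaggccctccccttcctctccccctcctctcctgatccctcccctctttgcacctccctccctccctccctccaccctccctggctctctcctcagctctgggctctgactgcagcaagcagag

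The start sites used for the Col4a1 and Col4a2 windows were 21 bp apart on opposite strands, at 11312826 and 11312805. The span of the Col4a1 gene reached 11312889, so the 2 genes overlapped at these ends. Their windows shared 78 bp, bases 223 to 300 of each. On the plus strand the shared stretch, chr8:11312777-11312854, holds 1 GC box.
Shared by Col4a1 and Col4a2: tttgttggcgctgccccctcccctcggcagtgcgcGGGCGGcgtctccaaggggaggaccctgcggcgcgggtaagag

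The Col6a6 window held 2 GC boxes and the Col6a1 window none of the 3 motifs. A GC box was present in 60.53% of the collagen windows and in 35.66% of all 32851 windows, a CCAAT box in 34.21% and 37.41%, and a TATA box in 13.16% and 13.62%. These matches describe the letters only.

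Ranges of depth overlapped between tissues, while groups within a tissue differed. Gene counts per library were 25164965 to 39171083 in kidney, 23584609 to 43792168 in heart, 26402957 to 57430113 in brain and 25052335 to 55871402 in the dementia series. The median was 38855584 with Cmpd60 and 28188597 with vehicle in brain, 35445741 and 26830122 in heart, and 27642015 and 28713227 in kidney, and its part in the Cmpd60 comparisons was not tested. Collagen genes took 0.195% to 0.364% of gene counts in kidney, 0.151% to 0.254% in heart and 0.0423% to 0.0592% in brain. At a mean of at least 1 CPM (counts scaled to library size) in vehicle mice, 31 of the 44 genes were expressed in kidney, 30 in heart and 38 in brain, whereas at 100 CPM or more there were 6, 5 and 0. The labels do not tie the 3 tissues to the same mouse and do not state that each library is a separate mouse, so p-values measure the spread between libraries. The tissue labels matched their markers: 5 cardiomyocyte genes summed to 45653 to 55317 CPM in heart, 5 proximal tubule genes to 4181.4 to 10234 CPM in kidney and 5 neuron genes to 4911.6 to 6648.9 CPM in brain. Because the tissues were sequenced whole, fewer cells of a type and less RNA per cell cannot be told apart.

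Levels between genes were compared as CPM per kb of exonic length in vehicle mice, scaled over all aged libraries, and an order is stated only where it also held for coding and for transcript length. In kidney the 5 highest collagen genes were Col4a1 at 60.9 ± 16.7 (SD, n = 5), Col18a1 at 46.1 ± 8.02, Col4a2 at 40.8 ± 8.91, Col4a4 at 38.0 ± 4.28 and Col4a3 at 26.6 ± 1.69. Of these, 4 are basement membrane network genes, and Col4a1 was first by each length. Spread over libraries was larger than the step from Col18a1 to Col4a2 and from Col4a2 to Col4a4. The fibrillar genes Col1a1, Col1a2 and Col3a1 followed at 12.3 ± 4.21, 11.6 ± 2.34 and 11.6 ± 4.33 CPM per kb. By exonic length they did not differ among themselves beyond that spread. By the other lengths Col1a1 was below Col1a2 in every vehicle kidney, with a ratio of 0.446 to 0.644 by coding and 0.426 to 0.615 by transcript length.

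In heart, Col4a1 at 82.3 ± 7.41 CPM per kb, Col4a2 at 62.7 ± 6.47 and Col3a1 at 26.5 ± 4.67 (SD, n = 6) were the 3 highest, in that order, by each length. Col6a1 at 20.4 ± 1.66 and Col1a1 at 17.0 ± 3.03 CPM per kb came next by exonic length, and Col1a2 and Col6a2 took their places by the other lengths. Brain had a different set: Col6a1 at 6.03 ± 1.38 CPM per kb, Col4a2 at 5.87 ± 0.856, Col25a1 at 5.60 ± 0.372, Col9a3 at 5.45 ± 0.735 and Col4a1 at 4.77 ± 0.790 were the highest by every length, in an order that depended on it. Col25a1 encodes a neuronal transmembrane collagen whose shed ectodomain is found in amyloid plaques, and Col9a3 a fibril-associated chain best known from cartilage. By exonic length the first 4 of the brain genes lay within their spread of each other, which need not hold by the other lengths.

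Summed over classes, the basement membrane network made up 56.85% ± 1.922 (SD, n = 5) of the collagen level per exonic kb in vehicle kidney and 51.71% ± 3.065 (n = 6) in vehicle heart. Fibrillar genes made up 14.68% in kidney and 24.46% in heart, multiplexins 16.89% and 5.955%, and beaded filament genes 5.379% and 12.47%. In kidney the order of fibrillar genes and multiplexins was reversed by coding length (19.29% and 14.37%) and by transcript length (19.74% and 16.26%). In brain no class dominated, with 22.93% for fibril-associated genes, 19.91% for the basement membrane network, 18.33% for fibrillar genes, 13.17% for beaded filament genes and 12.87% for transmembrane collagens. The transmembrane share of brain became 25.98% by transcript length, so the order of classes there was not fixed, whereas the basement membrane network led in kidney and heart by each length.

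**Figure D1:**
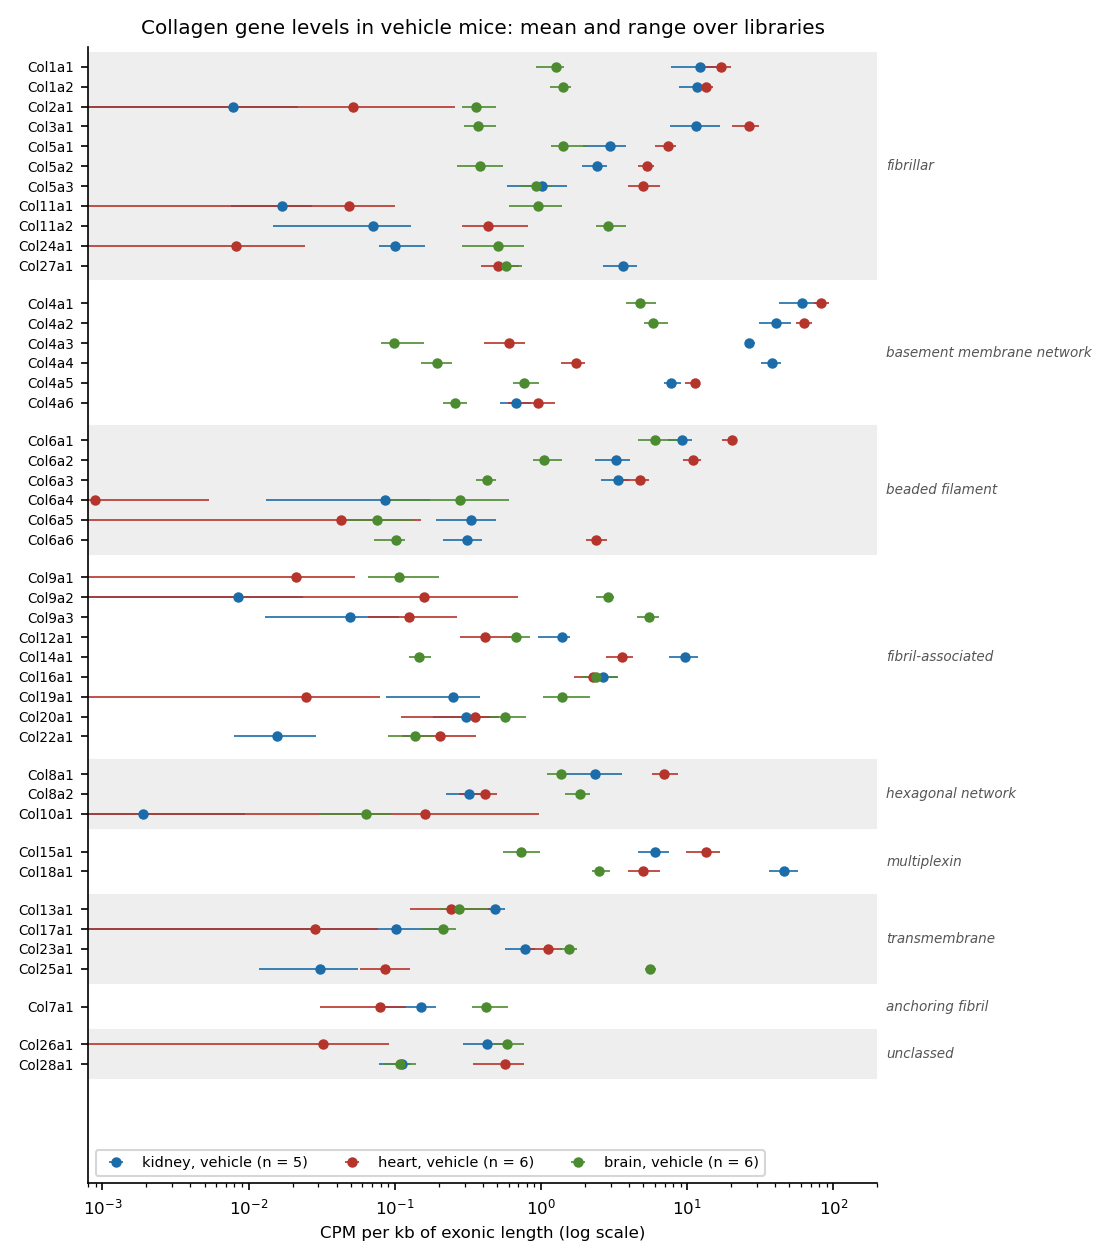
Level of each of the 44 collagen genes in vehicle mice, in CPM per kb of exonic length on a log axis, with the point at the mean and the line from the lowest to the highest library (kidney n = 5, heart n = 6, brain n = 6). Lines that run off the left edge reach 0, Col9a1 in kidney was at 0 in all 5 libraries and is not drawn, and kidney stands far to the right for Col4a3 and Col4a4, at 26.6 and 38.0 against 0.606 and 1.72 in heart.

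Most collagen genes differed between tissues, as did most genes. In vehicle mice, 39 of 44 differed between kidney and heart (adjusted p below 0.05, edgeR's quasi-likelihood test), 37 between brain and heart and 39 between brain and kidney, against 56.7%, 72.1% and 72.5% of all 27105 features tested. The highest mean was in heart for 19 collagen genes, in brain for 16 and in kidney for 9. The heart held the maximum of 6 of 11 fibrillar genes and of 4 of 6 genes in each of the basement membrane and beaded filament classes, and brain that of 5 of 9 fibril-associated and 3 of 4 transmembrane genes. The median log2 difference over all features was 0.44 between brain and heart and 0.24 between brain and kidney, so smaller brain differences depend on the scaling.

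Kidney stood apart for the glomerular chains. Col4a3 was higher in kidney than in heart by 5.44 on the log2 scale (SE 0.19) and Col4a4 by 4.46 (SE 0.14), and the multiplexin Col18a1, the source of endostatin, by 3.21 (SE 0.21). Col4a5, whose chain completes that network, was lower in kidney than in heart, with a log2 difference of -0.55 (SE 0.095). For the type I chains the difference between kidney and heart did not pass the test, at -0.47 (95% interval -0.99 to 0.06) for Col1a1 and -0.22 (-0.58 to 0.14) for Col1a2, whereas Col3a1 was lower in kidney, at -1.20 (SE 0.27). Col6a6 was also lower in kidney than in heart, at -2.92 (SE 0.29).

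In brain, the major interstitial and basement membrane collagens were lower than in heart. Against heart, the log2 difference was -6.15 (SE 0.32) for Col3a1, -4.11 (SE 0.17) for Col4a1 and -3.74 (SE 0.28) for Col1a1. Higher in brain than in heart were Col25a1 by 5.98 (SE 0.24), the fibril-associated Col19a1 by 5.85 (SE 0.44), the minor fibrillar Col24a1 by 5.69 (SE 0.44) and Col9a3 by 5.47 (SE 0.34). Fibroblast markers also differed between tissues: the summed level of 8 genes was 2352.7 to 2792.5 CPM in vehicle heart, 344.19 to 450.49 in kidney and 142.31 to 156.24 in brain. Each sum is on its tissue's own scaling. Between kidney and heart Col3a1 passed the test above and the type I chains did not. The part of fibroblasts in the collagen differences was not tested.

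With Cmpd60, the fold changes of collagen genes pointed both ways in the aged kidney. Of the 44 genes, 40 passed the filter on low counts there (not Col2a1, Col9a1, Col9a2 and Col10a1), 20 of them on the higher and 20 on the lower side, and the median of their log2 fold changes was 0.03 against -8.01e-05 over all genes. By edgeR's quasi-likelihood test 0 collagen genes passed an adjusted p of 0.05, against 0.3% of all 20698 genes tested; limma-voom also gave 0 and DESeq2 gave 1, Col19a1, where it called 429 of all 20698 genes. At an unadjusted p below 0.05, 5 collagen genes were higher and 4 lower, where the same rule took 5.71% and 5.63% of all genes.

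Type I and III collagen varied more among treated kidneys than between the groups. Col1a1 read 86.6, 98.3, 62.2, 56.2, 228 and 232 CPM in Cmpd60 replicates 50 to 55 and 113, 83.7, 59.7, 117 and 53.5 CPM in vehicle replicates 45 to 49. Replicates 54 and 55 were above every vehicle library and the other 4 treated kidneys were within the vehicle range. The log2 fold change of Col1a1 was 0.58 (SE 0.37, 95% interval -0.21 to 1.36, adjusted p = 0.58, edgeR). Col3a1 showed the same 2 libraries, at 212 and 246 CPM, against 58.2 to 87.1 CPM in the other 4 treated kidneys and 67.9 to 149.3 CPM in vehicle kidneys, with a log2 fold change of 0.27 (SE 0.38, adjusted p = 0.83, edgeR). For Col1a2, the second chain of type I, they read 296 and 262 CPM, the other treated kidneys 112 to 141 CPM and vehicle kidneys 113 to 181 CPM, with a fold change of 0.25 (SE 0.25) on the log2 scale.

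The direction of all 3 genes depended on those 2 libraries. Without them, a comparison added after their values were seen, the log2 fold change was -0.17 for Col1a1, -0.24 for Col1a2 and -0.53 for Col3a1 (unadjusted p = 0.0373, adjusted p = 0.337, edgeR), and the count at an unadjusted p below 0.05 became 1 higher and 5 lower, with 0 adjusted. Over all genes, 13.2% had such a p in that fit and 0.7% an adjusted p below 0.05, against 11.3% and 0.3% with both libraries. The same 2 kidneys carried more macrophage and fewer proximal tubule transcripts. The summed level of 5 macrophage genes was 325.68 CPM in replicate 54 and 269.32 in replicate 55, against 136.43 to 210.54 in the other 9 kidneys, and that of 5 proximal tubule genes 6786.3 and 4181.4, against 7525.6 to 10234. The sum of 8 fibroblast genes was 569.85 in replicate 54 and 365.89 in replicate 55, against 335.97 to 450.57 in the others. The list of 6 tendon, cartilage and valve genes summed to 20.864 CPM in replicate 54 and 21.561 in replicate 55, against 8.3094 to 13.401 in the others. Between the groups, 5 of 5 macrophage genes had a positive fold change and 0 an unadjusted p below 0.05 (edgeR), 0 of 8 fibroblast genes had such a p, and 2 of 5 proximal tubule genes were lower at it. Replicate 55 had the fewest genes detected of the 11 kidney libraries, at 18512. Replicate 54 had 22724, and the other 9 kidneys had 19385 to 23062. The part of these cell types and of gene detection in the collagen values was not tested.

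Among the minor fibrillar genes, Col24a1 was the only collagen gene whose kidney groups did not overlap, with Cmpd60 below vehicle, which held for 1.2% of all genes. It read 0.187 to 0.566 CPM with Cmpd60 and 0.632 to 1.30 CPM with vehicle, a low level at which 1 library was 1.30 CPM and the next highest 0.746 CPM. Its log2 fold change was -1.13 (SE 0.40, adjusted p = 0.29, edgeR). Fold changes of Col5a1, Col5a3 and Col27a1 were 0.20, 0.23 and 0.18 and that of Col5a2 was -0.24, each with an interval that included 0.

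Within the basement membrane network, the glomerular and the ubiquitous chains differed in sign. Col4a4 read 238, 241, 300, 299, 252 and 182 CPM with Cmpd60 and 331, 328, 346, 282 and 386 CPM with vehicle, so that all but 1 vehicle kidney were above every treated kidney. Its log2 fold change was -0.41 (SE 0.13, 95% interval -0.68 to -0.14, adjusted p = 0.218, edgeR). Col4a3 ranged from 138 to 279 CPM with Cmpd60 and from 260 to 304 CPM with vehicle, a log2 fold change of -0.31 (SE 0.14, adjusted p = 0.433, edgeR). Without replicates 54 and 55 these values became -0.32 and -0.17. The 6 podocyte genes of the marker list, from the cell type that makes these chains in the glomerulus, summed to 464.27 to 634.12 CPM with Cmpd60 and 540.67 to 633.58 CPM with vehicle, and 0 of the 6 had an unadjusted p below 0.05 (edgeR). In vehicle heart, on that tissue's own scaling, the same genes summed to 404.18 to 454.97 CPM, so the sum does not measure podocytes alone. Col4a1 had a log2 fold change of 0.20 (95% interval -0.17 to 0.56), Col4a2 of 0.16 (-0.16 to 0.48), Col4a5 of -0.11 (-0.33 to 0.10) and Col4a6 of 0.30 (-0.06 to 0.66).

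Of the beaded filament chains, Col6a1 and Col6a2 were higher in treated kidneys at an unadjusted p below 0.05. Col6a1 read 45.8, 80.8, 42.9, 46.2, 88.9 and 85.1 CPM with Cmpd60 and 49.8, 45.03, 36.1, 49.7 and 34.3 CPM with vehicle: treated replicates 51, 54 and 55 were above all vehicle kidneys and the other 3 among them. The log2 fold change was 0.60 (SE 0.21, adjusted p = 0.273, edgeR), and that of Col6a2 was 0.57 (SE 0.24, adjusted p = 0.394, edgeR). Col6a3, whose product completes the type VI trimer, had 0.31 (SE 0.17). Without replicates 54 and 55 the 3 values were 0.32, 0.28 and 0.06. The alternative chains Col6a4, Col6a5 and Col6a6 had fold changes of -0.84, -0.46 and -0.76, at means of at most 3.27 CPM.

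Col15a1, a multiplexin of capillary and muscle basement membranes, was at 34.4 to 97.8 CPM with Cmpd60 and 30.6 to 50.5 CPM with vehicle, a log2 fold change of 0.58 (SE 0.24, adjusted p = 0.391, edgeR) that became 0.14 without replicates 54 and 55. Its relative Col18a1 had 0.08 (95% interval -0.26 to 0.41). Col7a1, which encodes the anchoring fibril chain of skin, was at 2.85 ± 0.880 CPM (SD, n = 6) against 1.63 ± 0.471 (n = 5), and Col16a1 at 23.9 ± 4.75 against 18.99 ± 3.57 CPM. The fibril-associated Col19a1 was at 0.744 ± 0.242 against 1.81 ± 0.888 CPM, a log2 fold change of -1.29 (SE 0.38, adjusted p = 0.2, edgeR). By class, 7 of 10 fibrillar genes, 3 of 6 basement membrane genes, 3 of 6 beaded filament genes, 1 of 7 fibril-associated genes, 2 of 4 transmembrane genes and 1 of 2 hexagonal network genes were on the higher side, and the genes of no class, Col26a1 and Col28a1, on the lower. The fibrillar count includes Col1a1, Col1a2 and Col3a1, which turned negative without replicates 54 and 55. In that fit 16 of the 40 genes were on the higher side, against 20 with both libraries.

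**Figure D2:**
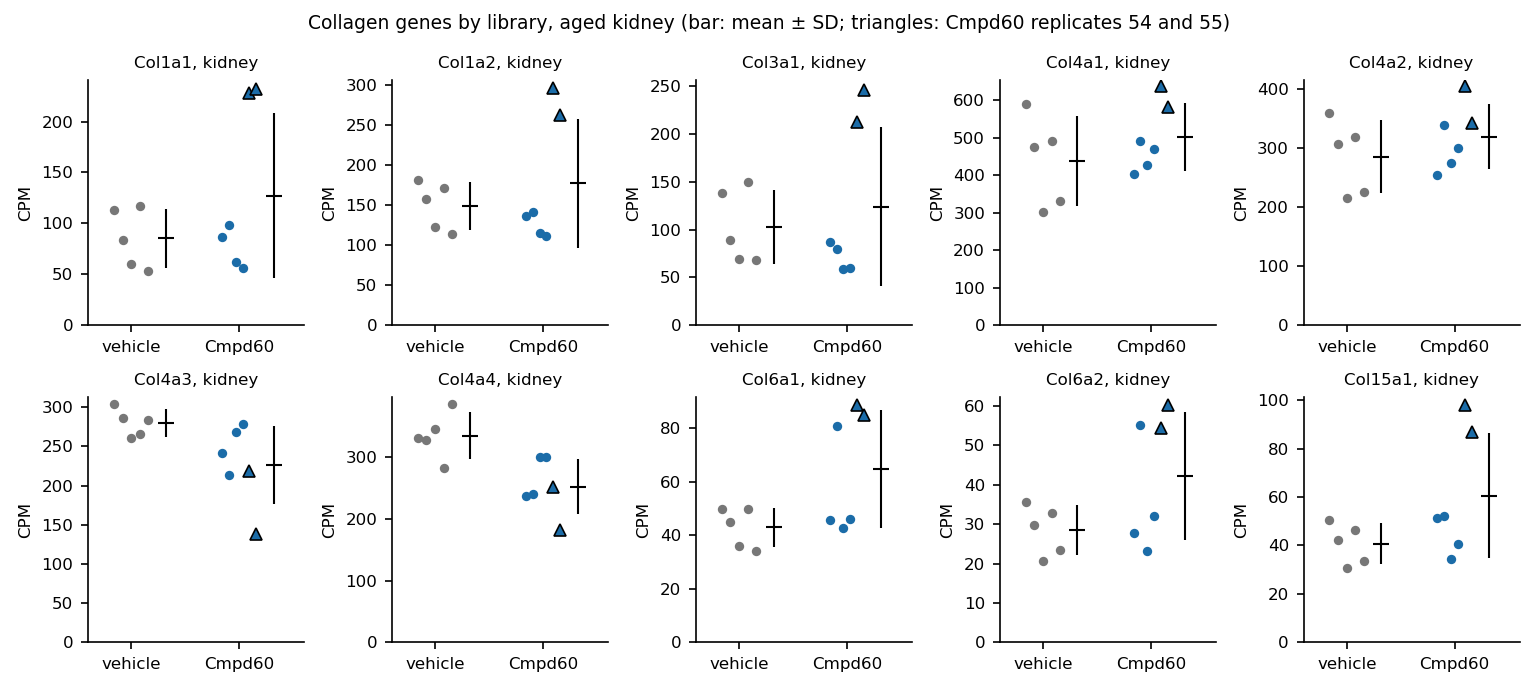
CPM of 10 collagen genes in each aged kidney library, with axes from 0, vehicle in grey (n = 5) and Cmpd60 in blue (n = 6), and a bar at the mean ± SD beside each group. Cmpd60 replicates 54 and 55, drawn as triangles, lie above all vehicle kidneys for Col1a1, Col1a2 and Col3a1, and 55 is the lowest for Col4a3 and Col4a4.

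In the aged heart 41 collagen genes were tested (not Col6a4, Col10a1 and Col24a1), and 1 of them, Col6a6, passed the adjusted p of 0.05, against 1.18% of all 19452 genes. Col6a6 encodes an alternative alpha chain of type VI collagen. It read 9.07, 6.58, 11.2, 8.99 and 7.06 CPM in Cmpd60 replicates 68 to 72 and 13.9, 13.6, 12.0, 14.8, 13.4 and 16.4 CPM in vehicle replicates 62 to 67, so every treated heart was below every vehicle heart, as held for 1.24% of all genes. It fell by 0.71 on the log2 scale (SE 0.13, adjusted p = 0.0171, edgeR). The adjusted p was 0.0637 without replicate 72 and below 0.05 without any other library. DESeq2 and limma-voom also called Col6a6 and no other collagen gene. Fibroblast markers overlapped between the groups: 8 genes summed to 2275.3 to 2458.7 CPM with Cmpd60 and 2352.7 to 2792.5 CPM with vehicle. Of these, 6 of 8 had a negative fold change, and 2 (Dpt and Gsn) were lower at an unadjusted p below 0.05 (edgeR), where 6.22% of all genes were. Their part in the Col6a6 values was not tested.

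The main type VI chains had positive fold changes. Col6a1 was at 75.9, 88.5, 79.2, 69.6 and 94.2 CPM with Cmpd60 and at 60.1 to 78.6 CPM with vehicle (median 72.6), a log2 fold change of 0.20 (SE 0.083, adjusted p = 0.304, edgeR). Col6a3 had 0.31 (SE 0.13, adjusted p = 0.302, edgeR) and Col6a2 0.12 (95% interval -0.06 to 0.30). In all, 5 collagen genes were higher and 3 lower at an unadjusted p below 0.05, and that rule took 7.28% and 6.22% of all genes. Over the class medians, fibrillar genes were at 0.09 on the log2 scale, basement membrane genes at -0.04 and beaded filament genes at 0.12, against -0.0014 over all genes.

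Fibrillar collagens of the heart overlapped between groups. Col1a1 was at 98.6, 126, 99.3, 96.1 and 121 CPM with Cmpd60 and at 63.2 to 108 CPM with vehicle (median 92.1), and 4 of the 6 vehicle hearts lay below the lowest treated heart. Its log2 fold change was 0.29 (SE 0.11, 95% interval 0.05 to 0.53, adjusted p = 0.257, edgeR). For Col1a2 it was 0.11 (-0.07 to 0.30) and for Col3a1 0.06 (-0.16 to 0.28). A further 3 genes best known from cartilage stood out in a single vehicle heart, replicate 62, at 1.27 CPM for Col2a1, 1.75 CPM for Col9a2 and 2.47 CPM for Col10a1, and were chosen after their values were seen. Col10a1, a marker of hypertrophic cartilage, was at 0 in the other 5 vehicle hearts.

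For Col4a1 and Col4a2 the size of the difference in heart depended on 1 library. Col4a2 read 372, 640, 375, 356 and 420 CPM with Cmpd60 and 291 to 388 CPM with vehicle (median 319), and Col4a1 read 462, 799, 492.7, 473 and 544 CPM and 397 to 518 CPM (median 426). Replicate 69 held the 799 and 640. The log2 fold change was 0.39 for Col4a2 (SE 0.13, adjusted p = 0.184, edgeR) and 0.31 for Col4a1 (SE 0.12, adjusted p = 0.267, edgeR), and without replicate 69 it was 0.20 and 0.14. Without it, 1 collagen gene, Col4a2, was still higher and 1, Col6a6, lower at an unadjusted p below 0.05. Endothelial transcripts were also highest in replicate 69: 6 endothelial genes summed to 1159.4 CPM there, 870.49 to 958.2 in the other treated hearts and 819.36 to 936.44 in vehicle hearts. Of these genes 6 of 6 had a positive fold change, 2 of them at an unadjusted p below 0.05 (edgeR). Their part in the Col4a1 and Col4a2 values was not tested. Of the glomerular chain genes, Col4a3 and Col4a4 were low in heart, with Col4a3 at 3.74 ± 0.292 CPM with Cmpd60 against 4.80 ± 1.10 with vehicle. Col15a1 was at 58.1 ± 3.71 CPM with Cmpd60 (n = 5) and 67.7 ± 10.8 with vehicle (SD, n = 6), a log2 fold change of -0.22 (SE 0.099, adjusted p = 0.334, edgeR), and Col18a1 had 0.01 (95% interval -0.40 to 0.41). None of the 9 fibril-associated, 4 transmembrane or 2 hexagonal network genes tested had an unadjusted p below 0.05 in heart (edgeR), and 4, 2 and 2 of them were on the higher side.

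In the aged brain all 44 genes were tested, and the fold changes leaned to higher levels with Cmpd60. Of the 44, 32 were on the higher and 12 on the lower side, and the median of their log2 fold changes was 0.19 against 0.0072 over all genes. By edgeR 0 passed the adjusted p of 0.05, against 0.0205% of all 24438 genes, while DESeq2 called 5 (Col4a1, Col4a2, Col5a1, Col6a1 and Col6a2), and 401 of all 24438 genes, and limma-voom 0 collagen genes. At an unadjusted p below 0.05, 12 were higher and 0 lower, where the rule took 7.32% and 6.47% of all genes. The 12 were 4 of the beaded filament genes (Col6a1, Col6a2, Col6a4 and Col6a5), 4 of the fibrillar genes (Col2a1, Col5a1, Col11a1 and Col11a2), Col4a1 and Col4a2 of the basement membrane network, and the fibril-associated Col16a1 and Col19a1. No gene of the other classes was among them, where 2 of 4 transmembrane, 2 of 3 hexagonal network and 2 of 2 multiplexin genes were on the higher side.

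Col4a2 read 56.7, 76.8, 60.7, 59.4, 59.4 and 62.8 CPM in Cmpd60 replicates 33 to 38 and 46.8, 43.1, 58.4, 39.8, 49.4 and 40.3 CPM in vehicle replicates 27 to 32. Only vehicle replicate 29 reached the treated range. The log2 fold change was 0.44 (SE 0.089, 95% interval 0.25 to 0.62, adjusted p = 0.0868, edgeR). Col4a1 followed at 0.49 (SE 0.12, adjusted p = 0.111, edgeR), with 52.0, 76.7, 47.9, 46.7, 49.1 and 54.8 CPM against 40.3, 36.7, 50.1, 34.0, 40.4 and 31.1 CPM. The other type IV chains were at 6.15 CPM or below in vehicle brain, and their fold changes lay between -0.25 (Col4a6) and 0.19 (Col4a4), with Col4a5 at 0.00 (95% interval -0.22 to 0.22).

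Col6a2 was at 12.7 to 16.3 CPM with Cmpd60 (median 14.9) and 8.80 to 14.0 CPM with vehicle (median 9.49), a log2 fold change of 0.50 (SE 0.10, adjusted p = 0.0868, edgeR). Col6a1 was at 35.8 to 55.3 CPM (median 43.3) against 24.0 to 45.1 CPM (median 30.98), or 0.47 (SE 0.12, adjusted p = 0.129, edgeR), and Col6a3 had 0.18 (95% interval -0.09 to 0.45). Col5a1, which encodes a chain of the type V collagen that nucleates fibrils, was at 17.7 to 23.8 CPM (median 19.6) against 11.8 to 21.6 CPM (median 13.1), or 0.49 (SE 0.12, adjusted p = 0.113, edgeR). In each of these genes vehicle replicate 29 was the highest vehicle brain, and no collagen gene was without overlap between the brain groups, which held for 0.925% of all genes.

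That library decided the count of calls. Without vehicle replicate 29, 8 collagen genes passed the adjusted p of 0.05 by edgeR (Col4a1, Col4a2, Col5a1, Col6a1, Col6a2, Col6a4, Col11a2 and Col16a1) and 17 were higher at an unadjusted p below 0.05. Calls over all genes grew as well, to 372 of 24262 adjusted, against 5 with that library, and to 4223 unadjusted, against 3368, whereas leaving out any other brain gave 0 adjusted calls among collagen genes. The highest treated brain for Col4a1 and Col4a2 was replicate 34, where 6 endothelial genes summed to 145.11 CPM, against 98.095 to 110.16 in the other treated brains and 92.922 to 100.55 in vehicle brains. All 6 had positive fold changes and 1, Cdh5, an unadjusted p below 0.05 (edgeR). In vehicle replicate 29 that sum was 96.65 CPM, inside the range of the other vehicle brains. The 5 neuron genes of the marker list summed to 5275.1 to 6648.9 CPM with Cmpd60 and 4911.6 to 5678.3 CPM with vehicle, and 4 of them were higher at an unadjusted p below 0.05 (edgeR). Leptomeningeal genes, from the fibroblasts that cover the brain, summed to 66.289 to 102.82 CPM and 66.614 to 85.538 CPM, with 0 of 7 at that p. The part of these cells in the collagen values was not tested.

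The major interstitial collagens had negative fold changes in brain with intervals that included 0. Col1a1 was at 9.04 ± 1.14 CPM with Cmpd60 and 9.95 ± 1.64 with vehicle (SD, n = 6 and 6), with a log2 fold change of -0.14 (95% interval -0.38 to 0.10), and Col1a2 and Col3a1 had -0.06 (-0.22 to 0.10) and -0.15 (-0.43 to 0.13). Of the collagens highest in brain, Col2a1, Col6a4, Col11a1, Col11a2 and Col19a1 were among the 12 above, whereas Col25a1 read 44.3 to 67.02 CPM (median 57.2) against 56.8 to 67.3 CPM (median 61.4), or -0.15 (-0.32 to 0.01), and Col9a3 had -0.01 (-0.27 to 0.26). Col15a1 and Col18a1 had 0.08 and 0.05. Choroid plexus transcripts varied widely among treated brains: 7 choroid plexus genes summed to 229.61 CPM in Cmpd60 replicate 34 and 958.54 CPM in replicate 38, where Col8a2 was at 4.53 and 14.0 CPM and Col9a3 at 17.8 and 33.8 CPM. In vehicle brains that sum was 559.16 to 783.54 CPM, and its part in these values was not tested.

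**Figure D3:**
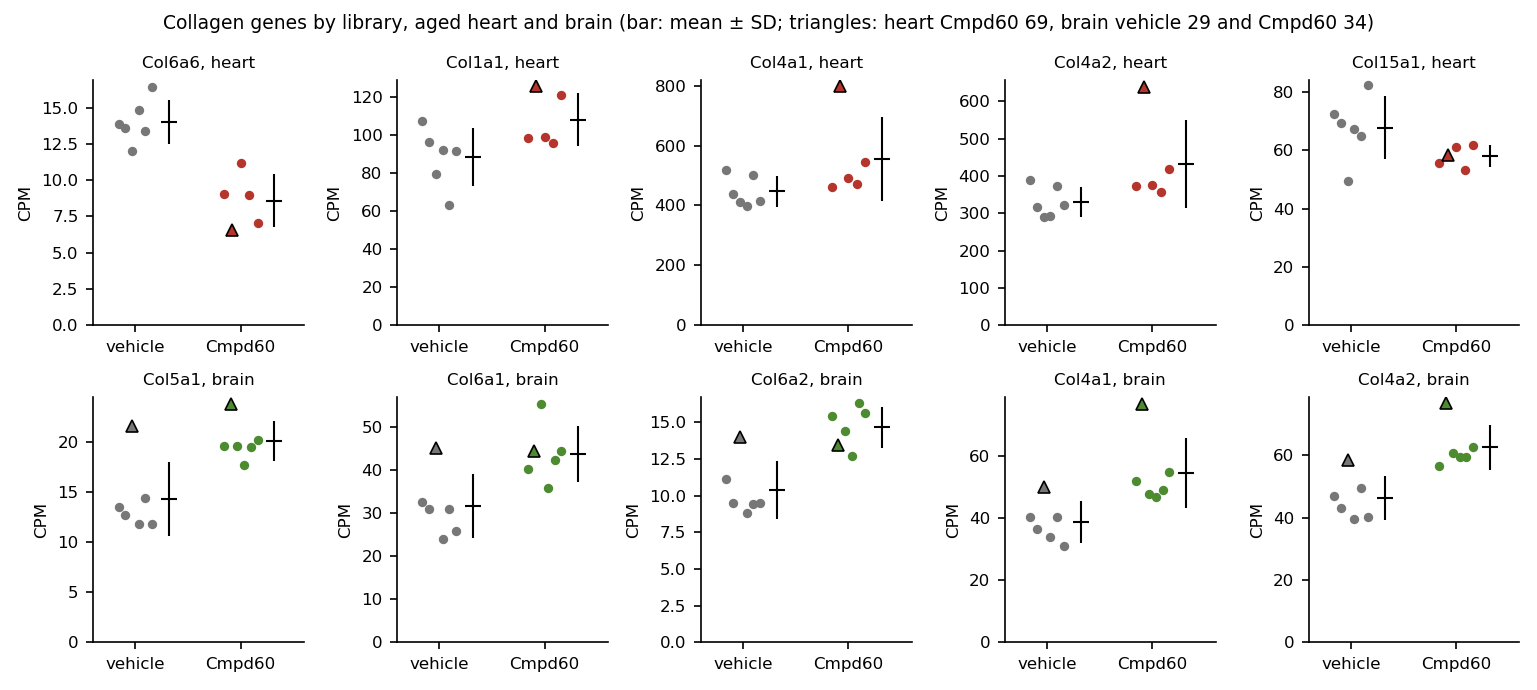
CPM of collagen genes in each aged heart (upper row, 6 vehicle and 5 Cmpd60) and brain (lower row, 6 and 6), with axes from 0 and a bar at the mean ± SD. Col6a6 in heart is the panel without overlap (6.58 to 11.2 against 12.0 to 16.4 CPM), and the triangles mark heart Cmpd60 replicate 69, brain Cmpd60 replicate 34 and brain vehicle replicate 29, the last level with treated brains for Col5a1 and Col6a1.

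Across tissues, 38 collagen genes were tested in all 3, from libraries that the comparisons did not share. A positive fold change in each was found for 11 (Col4a1, Col4a2, Col5a1, Col5a3, Col6a1, Col6a2, Col6a3, Col16a1, Col17a1, Col18a1 and Col27a1) and a negative one for 3 (Col6a6, Col9a3 and Col25a1). The share of all genes with 1 sign in each tissue was not computed, so these counts have no background and do not show a shared response. Some values lay near 0, such as 0.0059 for Col18a1 in heart and 0.027 for Col17a1 in brain. The sign of Col18a1 changed without single libraries in each tissue, and that of Col9a3 in brain in 6 of the 12 fits that left out 1 brain. Whether the effect of Cmpd60 differed between tissues was tested as an interaction over the 34 aged libraries. By edgeR 0 collagen genes passed an adjusted p of 0.05 for kidney against heart, brain against heart or kidney against brain, where 0.35%, 0.0517% and 0.0885% of all 27105 features did, and 4, 3 and 6 had an unadjusted p below 0.05, against 11.7%, 9.08% and 10% of all features. DESeq2 called 0, 0 and 2 (Col19a1 and Col24a1 for kidney against brain) and limma-voom 0 in each. The smallest p-values belonged to Col15a1 for kidney against heart, with a log2 difference in effect of 0.79 (SE 0.27, adjusted p = 0.21), and to Col19a1 for kidney against brain, with -1.71 (SE 0.47, adjusted p = 0.15, edgeR). The difference for Col4a4 between kidney and brain was -0.63 (SE 0.2, adjusted p = 0.25, edgeR). For the fall of Col6a6 in heart, the difference from kidney was -0.07 (95% interval -0.83 to 0.69) as kidney minus heart and from brain 0.70 (-0.11 to 1.501) as brain minus heart, so it was not shown to differ between tissues.

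**Figure D4:**
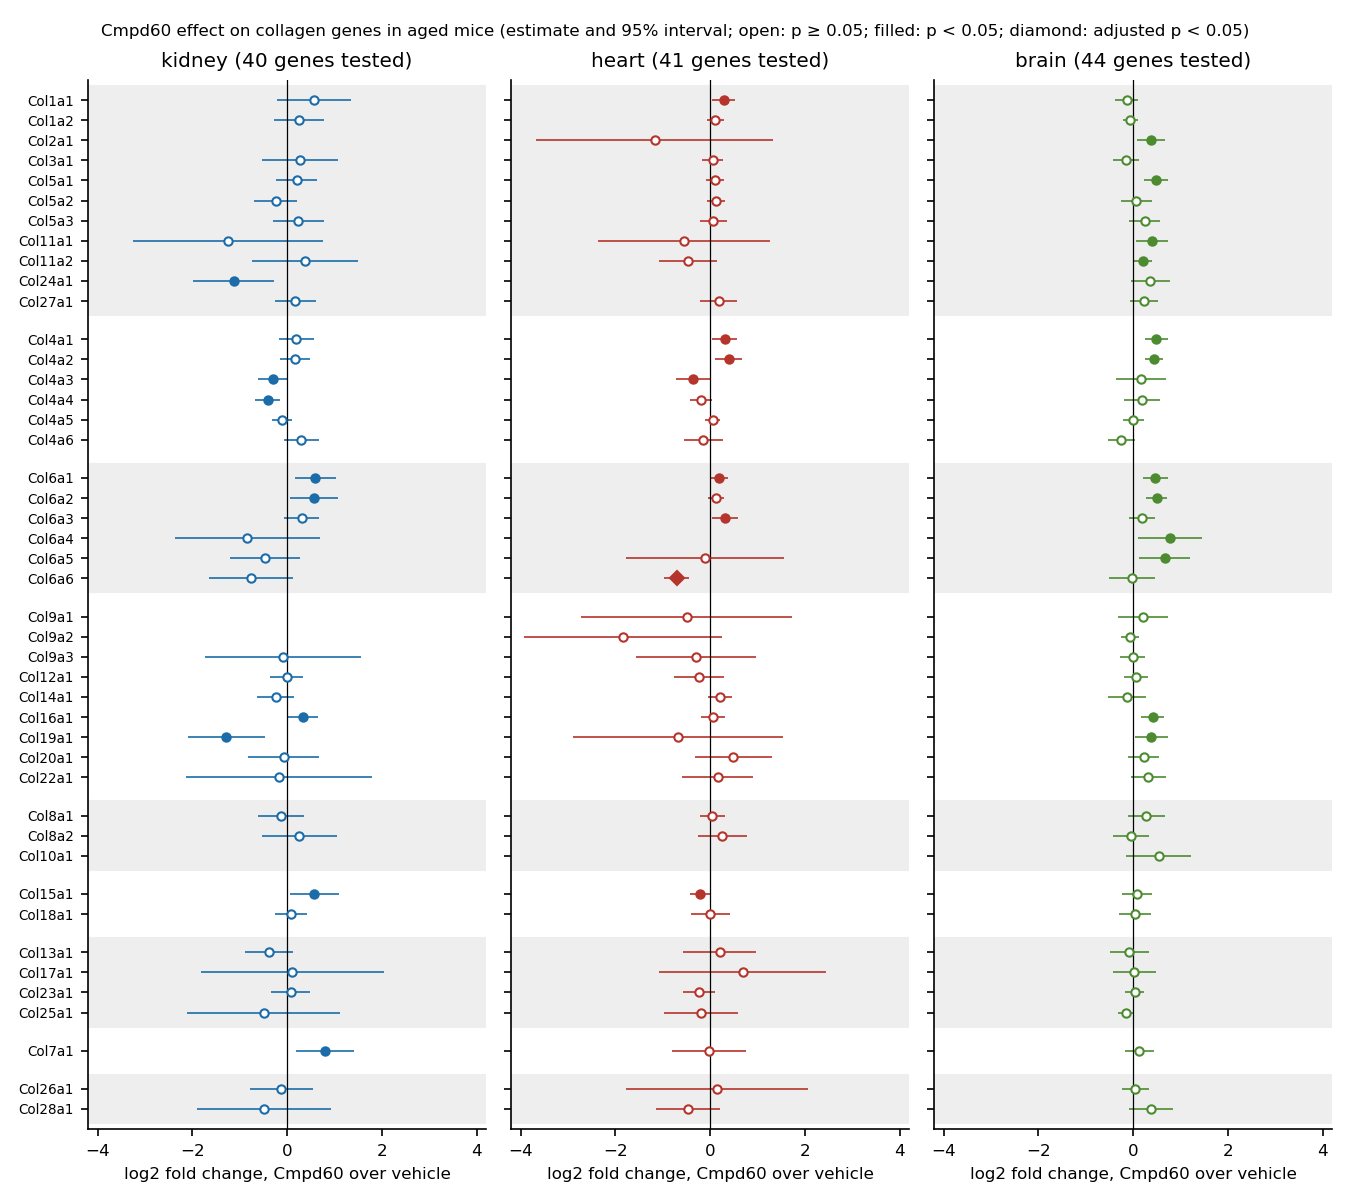
Log2 fold change with Cmpd60 for the collagen genes tested in aged kidney (40), heart (41) and brain (44), with 95% intervals from edgeR; filled points have an unadjusted p below 0.05 and the diamond an adjusted p below 0.05. The single diamond is Col6a6 in heart at -0.71, and the filled points of the brain panel are all on the higher side.

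Chains that assemble with each other were followed across libraries of a tissue, both treatments together, as log2 CPM (n = 11, 11 and 12), with p-values adjusted over 15 relations. Col4a1 and Col4a2, which share the 78 bp printed above, had Pearson's r of 0.98 in kidney, 0.99 in heart and 0.97 in brain, with Spearman's rho of 0.99, 0.96 and 0.87 and adjusted permutation p-values for r of 3e-05 in each. Without the 2 libraries farthest from the median r was 0.96, 0.95 and 0.96. Within groups, after subtracting group means, it was 0.98, 0.99 and 0.93. Col6a1 and Col6a2 had r of 0.97, 0.92 and 0.88. Col1a1 and Col1a2 had 0.98 in kidney and 0.87 in heart but 0.36 in brain (adjusted permutation p = 0.2546). Col1a2 was at most 23.1 CPM in brain, and the part of its level in that r was not tested. Col4a3 and Col4a4 had 0.89, 0.61 and 0.55 (adjusted permutation p = 0.0005167, 0.05563 and 0.07199). Within single groups r was lower for some pairs, at 0.25 for Col4a3 and Col4a4 in vehicle kidney and 0.24 for Col6a1 and Col6a2 in Cmpd60 brain. These libraries share depth, composition and cell makeup, so the values describe how the genes varied together.

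**Figure D5:**
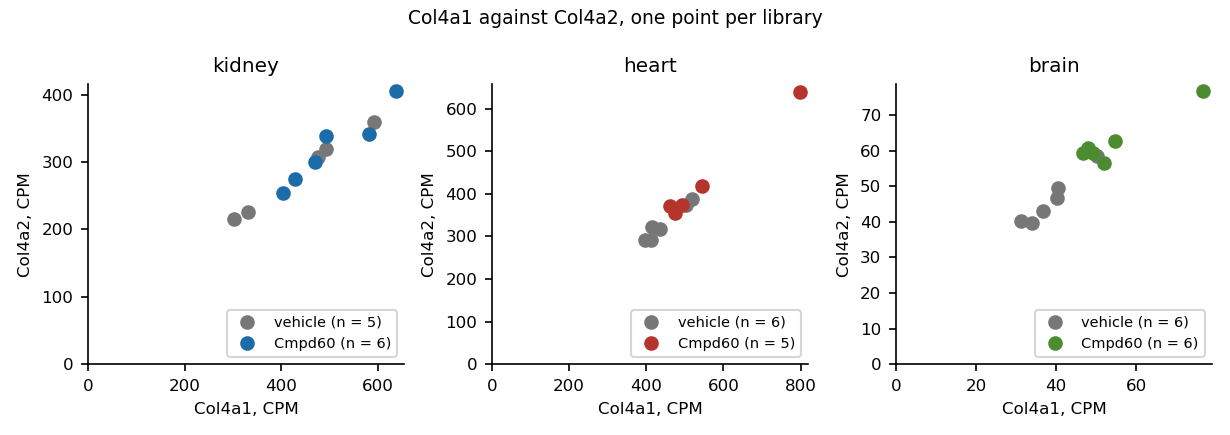
Col4a2 against Col4a1 in CPM, 1 point per library, in aged kidney, heart and brain, with axes from 0 and grey points for vehicle. The points of each tissue lie along a line (r of 0.98, 0.99 and 0.97), with heart Cmpd60 replicate 69 at 799 and 640 CPM and brain Cmpd60 replicate 34 at 76.7 and 76.8 CPM at the far ends.

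The genes that make, cut and bind collagen were described from 5 lists. In kidney, enzymes of collagen synthesis and cross-linking had 3 of 28 genes higher and 0 lower at an unadjusted p below 0.05 (edgeR), breakdown enzymes 2 and 1 of 17, fibril-binding proteins 0 and 2 of 18, collagen receptors 2 and 0 of 9, and basement membrane partners 3 and 2 of 16, with 0 adjusted calls, where 5.71% of all genes were higher and 5.63% lower at that p. The smallest p in each list were those of P3h4, which serves lysine hydroxylation (0.63, SE 0.16, adjusted p = 0.126), the collagenase gene Mmp13 (-1.32, adjusted p = 0.216), osteomodulin, Omd (-0.85, adjusted p = 0.371), the collagen receptor Ddr1 (0.33, adjusted p = 0.143) and the laminin chain gene Lama1 (-0.57, adjusted p = 0.107). P3h4 was above and Mmp13 and Lama1 below the vehicle range in every treated kidney, as held for 1.1% of all genes above and 1.2% below. Lama1 was at 27.1 ± 5.46 CPM (SD, n = 6) against 40.3 ± 4.89 (n = 5).

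In heart 2 genes of these lists passed the adjusted test. Plod1, a lysyl hydroxylase that modifies collagen chains, rose by 0.38 on the log2 scale (SE 0.083, adjusted p = 0.0401, edgeR), from 78.2 ± 3.46 CPM (n = 6) to 102 ± 15.5 (n = 5), and the lysosomal protease gene Ctsl rose by 0.36 (SE 0.072, adjusted p = 0.0252, edgeR), from 246 ± 23.7 to 317 ± 21.4 CPM. The groups did not overlap for either, as held for 1.45% of all genes with Cmpd60 above vehicle, and 1.18% of all genes passed the adjusted test in either direction. Plod1 lost its call in 9 and Ctsl in 3 of the 11 fits that left out 1 heart. Sparc, which binds collagen outside the cell, was at 321 ± 92.3 against 223 ± 10.3 CPM (adjusted p = 0.0671, edgeR). The counts at an unadjusted p below 0.05 were 5 higher and 1 lower of 29 synthesis genes, 4 and 1 of 17 breakdown genes, 2 and 2 of 18 fibril-binding genes, 2 and 0 of 9 receptors and 1 and 1 of 16 basement membrane partners, against 7.28% higher and 6.22% lower of all genes.

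In brain these lists had 0 adjusted calls by edgeR. The counts were 3 higher and 2 lower of 29 for synthesis, 1 and 2 of 16 for breakdown, 5 and 0 of 18 for fibril binding, 0 and 1 of 8 for receptors and 6 and 0 of 16 for basement membrane partners, against 7.32% higher and 6.47% lower of all genes. Lama5, a laminin chain gene of vascular basement membranes, was at 24.8 ± 2.27 against 18.6 ± 2.54 CPM (0.41, SE 0.085, adjusted p = 0.0868, edgeR), and Thbs4, a matrix thrombospondin gene, at 8.13 ± 2.81 against 4.26 ± 0.686 CPM (0.93, adjusted p = 0.0868). Lower were Tll1, which encodes a procollagen C-proteinase (-0.57, adjusted p = 0.0901), and the membrane-bound collagenase gene Mmp14 (-0.38, adjusted p = 0.113).

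In the younger brains of the dementia series 0 of 44 collagen genes passed the adjusted test for Cmpd60, in APPSWE mice (4 Cmpd60 and 5 vehicle libraries) or in AD-control mice (5 and 5), as did 0% of all 23194 genes by edgeR, and DESeq2 and limma-voom also called 0 collagen genes. At an unadjusted p below 0.05 there were 0 and 1 collagen genes, against 9.46% and 3.67% of all genes. The 1 was Col6a1 in AD-control mice, at 25.1 ± 6.99 against 18.2 ± 2.21 CPM, with a log2 fold change of 0.47 (SE 0.22, adjusted p = 1, edgeR). Col4a1 had fold changes of 0.11 (95% interval -0.27 to 0.49) in APPSWE and 0.17 (-0.18 to 0.53) in AD-control mice, and Col4a2 of 0.12 (-0.34 to 0.57) and 0.12 (-0.31 to 0.55).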

How the data were processed

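RNA was sequenced from 54 libraries, 34 of aged mice and 20 of the dementia series. Per the labels, the authors trimmed reads with Trimmomatic 0.32, aligned with HISAT2 2.1.0 and counted with HTSeq 0.11.0, and the deposited values are raw read counts per gene. Summary rows that name no gene (16.62% to 22.15% of rows' counts in aged libraries) were left out. Libraries were made with a directional kit, and read direction was used in counting, by the study's methods. A gene entered the tests of a tissue when 3 or more libraries held over 2 counts of it. Tests used edgeR 4.0.16 (quasi-likelihood test, TMM, R 4.3.3), with Benjamini-Hochberg adjustment over all genes; intervals are 95%. CPM use TMM library sizes. DESeq2 1.42.0, limma 3.58.1 (voom, with and without quality weights), other filters and scalings, and leaving out each library were alternatives. Correlations used permutations. Lengths came from GENCODE vM1.

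The genes named are 13 collagens in each aged tissue, those with an adjusted p below 0.05, the 4 smallest p-values per comparison, the 5 highest per length, and per pathway list those with an adjusted p below 0.05 (at most 3) or else the smallest p; others are named to complete a class. Members and lists were chosen with earlier results of these data known. Titles gave the groups. An APPSWE library titled vehicle but listed as Cmpd60 by the study was left out.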

Additional observations from a re-analysis of the deposited data

Results flagged for a closer look

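Of 120 gene and group pairs, 9 held a library far from the rest of its group by Dixon's test, which chance gives for about 1 in 20. In heart Cmpd60 replicate 69, Col4a1 was at 799 CPM and Col4a2 at 640 CPM, and in brain Cmpd60 replicate 34 they were at 76.7 and 76.8 CPM. In brain vehicle replicate 29, Col5a1 was at 21.6 CPM and Col4a3 at 1.90 CPM, against 11.8 to 14.5 and 0.951 to 1.13 CPM in the other vehicle brains. In kidney vehicle replicate 49, Col24a1 was at 1.30 CPM and P3h4 at 4.14 CPM, the latter against 6.69 to 7.65 CPM. In heart vehicle replicate 65, Lamb3, a laminin chain gene, was at 17.0 CPM, against 20.1 to 21.7 CPM.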

How the results depend on the processing

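No paired analysis was possible because the labels do not tie libraries of different tissues to the same mouse. The comparisons between tissues and the interactions treated all libraries as separate mice, whether or not tissues came from the same mice. With DESeq2 the adjusted calls were 1 in kidney (Col19a1), 5 in brain and 2 for kidney against brain, and in brain 4 without a filter and 3 with quality weights. Genes higher in kidney at an unadjusted p below 0.05 numbered 3 with limma-voom, 3 with quality weights and 1 without replicates 54 and 55, and genes lower 9 with quality weights. With quality weights 1 was lower in heart and 1 in brain, and 1 in brain without TMM. Leaving out 1 library gave 0 to 8 adjusted calls in brain (8 to 17 higher and 0 to 2 lower unadjusted), 0 to 1 in heart (1 to 6 and 1 to 4) and 0 in kidney (2 to 6 and 2 to 5). Signs changed with quality weights for Col18a1 (-0.12), Col1a2 (-0.083) and Col3a1 (-0.24) in kidney, Col18a1 (-0.098) in heart and Col9a3 (0.096) and Col4a5 (0.032) in brain. Col4a5 in brain was 0.016 with limma-voom and 0.0036 without a filter. Without kidney replicates 54 and 55, chosen after seeing the data, Col18a1 was -0.16, Col1a1 -0.17, Col1a2 -0.24 and Col3a1 -0.53. Leaving out 1 library gave Col18a1 -0.0702 to 0.15 in brain, -0.22 to 0.11 in heart and -0.015 to 0.17 in kidney, Col3a1 -0.000898 to 0.12 in heart and -0.035 to 0.46 in kidney, and in brain Col4a3 -0.071 to 0.35, Col4a5 -0.047 to 0.079 and Col9a3 -0.12 to 0.070. After centring on group means, r of Col1a1 and Col3a1 in brain was 0.5535 (adjusted permutation p = 0.07881). By coding and by transcript length, 3 of the 5 highest heart genes were shared. The cause of these changes was not tested. Genes under 0.1192 CPM in kidney, 0.1272 in heart or 0.1136 in brain lie under 3 counts in the shallowest library.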

Other observations

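The balance of type I to type III collagen is a value that no comparison above uses. Per exonic kb, the ratio of Col1a1 to Col3a1 was 1.20 to 1.58 in kidneys given Cmpd60 and 0.999 to 1.21 in vehicle kidneys, 0.662 to 0.815 and 0.573 to 0.714 in heart, and 2.87 to 3.70 and 2.66 to 4.60 in brain. Per coding kb it was 0.943 to 1.24 and 0.787 to 0.951 in kidney, so which gene was higher there depended on the length. The ratio was chosen after its values were seen and was not tested, and the groups overlapped in each tissue.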
